A study of Mus musculus with 16 samples.

Results

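Adgrg1, Adgrl4, Egfl7, Cd93, Esam, Tek, Angpt1 and Pecam1 are 8 genes of surface or secreted proteins that blood stem cells share with the cells lining blood vessels. They are 8 of the 52542 gene rows of the count files, matched by symbol, and they were described in 5157 kept cells of 16 libraries. The members were chosen by name with measured values in view: in earlier results from these counts, Egfl7 was lower in granulocyte-like than in lymphoid-like cells, and Cd93 was higher and Adgrg1 lower in lymphoid-like than in stem-like cells. Those 3 differences, and the other contrasts of these 3 genes that use lymphoid-like cells, are given here as description, without a p-value. The same holds for contrasts of Adgrg1 and Cd93 with stem-like cells and of Egfl7 with granulocyte-like cells, whose levels were also in view. The cells were Lin- Sca1+ Kit+ (LSK) cells, the mouse bone marrow fraction that holds blood stem and multipotent progenitor cells, profiled one cell per well by MARS-seq, which counts molecules at the 3′ ends of mRNAs by unique molecular identifiers (UMIs). All libraries form 1 group: fetal liver cells of controls, marked by CD45.1, and fetal liver cells that were Regnase-1–/–Regenase-3–/–, marked by CD45.2, were mixed 1:1 and given to lethally irradiated CD45.1/CD45.2 mice (strain C57BL/6J), and LSK cells were sorted from the marrow 4 weeks later. Neither the genotype nor the mouse of a library or well was given, so every library may hold cells of both donors, and no library was compared with another. The cells come from the marrow of irradiated hosts, and no label separates donor cells from any remaining host cells.

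As background, these genes fall into a few roles. Adgrg1 (GPR56) and Adgrl4 (ELTD1) are adhesion G protein-coupled receptors, with a long extracellular part that is cut from the membrane-spanning part; Adgrg1 is widely used to mark blood stem and progenitor cells. Tek (TIE2) is a receptor tyrosine kinase and Angpt1 its secreted activating ligand; in marrow this pair is known for its link to stem cell quiescence. Egfl7 is a secreted protein whose gene hosts the microRNA Mir126a. Cd93, Esam and Pecam1 (CD31) are adhesion molecules of endothelium, and Cd93 and Esam also serve as markers of progenitor and stem cell subsets.

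All 8 genes are protein coding in the GENCODE annotation of mouse GRCm38. Adgrg1 lies on chromosome 8 at chr8:94974751-95014217, Adgrl4 on chromosome 3 at chr3:151437887-151545086, Esam at chr9:37528078-37538319 and Tek at chr4:94739289-94874976, all on the plus strand. Cd93 lies at chr2:148436640-148443563, Pecam1 at chr11:106654217-106750628 and Angpt1 at chr15:42424723-42676977, all on the minus strand. Egfl7 lies at chr2:26580014-26593120 on the plus strand, and 4 annotated genes overlap it: Mir126a and Gm20532 on its strand, and Mir126b and Agpat2 on the opposite strand. Gm20532 had 1 UMI and Agpat2, whose 3′ end overlaps that of Egfl7, had 468 UMIs in the kept cells, against 1150 of Egfl7. The strand setting of the counting was not given in the sources used here, which leaves the split between Egfl7 and Agpat2 uncertain. Angpt1 overlaps the antisense gene Gm17473 (11 UMIs) at its 5′ end. The other 6 members overlap no annotated gene.

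The Mir126a hairpin at chr2:26591357-26591429 sits within Egfl7, and 1 of the 99 exon records of Egfl7 transcripts spans it. Its mature 3p strand is shown because Egfl7 counts are the only readout of this locus here: Mir126a and Mir126b had 0 UMIs. The seed, bases 2 to 8, is in capitals, and the sequence is from RefSeq (GRCm38.p6, chr2:26591402-26591423, plus strand).
mmu-miR-126a-3p: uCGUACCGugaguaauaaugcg

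RefSeq promoter windows, 250 bases before to 50 after an annotated start, were at hand for 4 of the 8 members, as 7 windows: 3 of Egfl7, 2 of Adgrg1 and 1 each of Adgrl4 and Tek (GRCm38.p6). They were searched on both strands for the letters GATAA (GATA factors), AGGAAG (ETS factors), TGTGGT (RUNX factors) and CAGCTG (an E-box), the factor families that blood and endothelium share. Of 32851 windows of this length, 25.4% held the GATA letters, 35.4% the ETS letters, 16.8% the RUNX letters and 16.3% the E-box letters. Of the members' 7 windows 4 held a match, and these 4 are shown because the matched letters, in capitals, are then seen in place. The Adgrl4 window (chr3:151437632-151437931) held 1 ETS match, 10 bases before the start. The upstream Egfl7 window (chr2:26580833-26581132) held 3 ETS matches and the E-box, and the next one (chr2:26583615-26583914) 2 ETS matches and 1 GATA match. The Tek window (chr4:94739039-94739338) held 1 GATA match. All 4 are on the plus strand and written from 5′ to 3′.
Adgrl4: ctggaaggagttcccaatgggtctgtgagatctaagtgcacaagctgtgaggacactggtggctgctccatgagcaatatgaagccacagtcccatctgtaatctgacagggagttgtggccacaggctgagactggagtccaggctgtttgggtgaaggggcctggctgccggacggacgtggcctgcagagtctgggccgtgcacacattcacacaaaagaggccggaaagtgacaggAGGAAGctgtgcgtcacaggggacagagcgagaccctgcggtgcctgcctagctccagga
Egfl7 upstream start: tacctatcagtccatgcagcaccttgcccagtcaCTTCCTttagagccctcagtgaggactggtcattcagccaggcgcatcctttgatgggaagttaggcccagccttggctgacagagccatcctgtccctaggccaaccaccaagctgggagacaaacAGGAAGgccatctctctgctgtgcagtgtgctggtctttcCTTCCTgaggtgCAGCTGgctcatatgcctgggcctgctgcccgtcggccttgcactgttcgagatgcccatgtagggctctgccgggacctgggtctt
Egfl7 second start: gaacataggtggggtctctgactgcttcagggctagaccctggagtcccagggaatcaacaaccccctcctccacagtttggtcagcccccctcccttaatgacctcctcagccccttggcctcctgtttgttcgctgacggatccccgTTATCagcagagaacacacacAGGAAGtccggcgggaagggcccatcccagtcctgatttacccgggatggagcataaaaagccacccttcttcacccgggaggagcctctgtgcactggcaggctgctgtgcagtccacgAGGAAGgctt
Tek: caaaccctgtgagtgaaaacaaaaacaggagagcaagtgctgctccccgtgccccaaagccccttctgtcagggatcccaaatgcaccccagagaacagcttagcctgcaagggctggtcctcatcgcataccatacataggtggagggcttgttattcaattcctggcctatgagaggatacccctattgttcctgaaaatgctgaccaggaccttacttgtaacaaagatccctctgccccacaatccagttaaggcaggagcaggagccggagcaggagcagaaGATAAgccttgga
A match says only that these letters are in the window. The third Egfl7 window and both Adgrg1 windows held none of the 4.

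The 16 libraries held 521435 to 822534 UMIs and 295 to 345 kept cells each, with a median of 1146 to 1993 UMIs per cell. The transcripts of both sorted antigens were present, Kit with 1841 UMIs and Ly6a (Sca-1) with 2289. Cells of the vessel wall were looked for with 19 other endothelial markers, of which 14 had a UMI: Cdh5, Sox17, Lyve1, Mmrn2 and Ptprb were at 0 UMIs of 10437310, and the list was led by Emcn (87 UMIs), Tie1 (82) and Robo4 (62). The summed list stood at 17.9 to 46.8 CPM (UMIs of the list per 1000000 UMIs) over libraries, with a median of 28.5. By gate, as defined below, it stood at 55.0 CPM in stem-gated, 24.7 in lymphoid-gated, 23.3 in granule-gated, 30.2 in monocyte and dendritic-gated and 21.0 in megakaryocyte or erythroid-gated cells. It was highest in the stem gate, as was Adgrg1, and its part in the members' levels was not tested. In the 60 wells listed as empty there was 1 UMI of a member, of Cd93, among 801 UMIs.

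A UMI of at least 1 member was found in 4240 kept cells (82.2%), and the 8 summed to 1328 CPM in library 14, 1473 CPM in the median library and 1790 CPM in library 8. Levels in CPM are not per length, and each gene is compared only with itself. The 95% intervals given for levels are exact Poisson intervals, and those for shares of cells Wilson intervals; both cover counting error only.

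Adgrg1 had 7316 UMIs and was detected in 59.9% of cells (58.6 to 61.2). Its level ran from 606 CPM in library 7 over a median of 660 to 878 CPM in library 8. That is a range of 1.45 times, the narrowest among the 8 genes. Adgrl4 had 2489 UMIs in 30.6% of cells, from 188 CPM in library 14 over a median of 236 to 313 CPM in library 8. Library 8 was thus the highest for both adhesion receptors.

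Angpt1 had 1980 UMIs in 25.1% of cells, from 142 CPM in library 2 over a median of 192 to 246 CPM in library 13. Cd93 had 1976 UMIs in 23.6% of cells, from 120 CPM in library 2 over a median of 192 to 221 CPM in library 13. Libraries 2 and 10 were the lowest 2 for both genes, and library 13 the highest. Egfl7 had 1150 UMIs in 16.1% of cells, from 77.9 CPM in library 4 over a median of 107 to 153 CPM in library 15.

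Pecam1 had 585 UMIs in 9.25% of cells and the widest spread of the genes found in every library with at least 17 UMIs. It ran from 30.6 CPM in library 7 over a median of 47.9 to 138 CPM in library 2 (69 UMIs, interval 107 to 175), with library 10 next at 90.1 CPM. In library 2 the other endothelial markers stood at 19.996 CPM and the platelet markers at 91.98 CPM, close to or below their medians over libraries of 28.5 and 91.3 CPM. In library 10 the endothelial list stood at 46.8 CPM, its highest level. Library 2 had the lowest median UMIs per cell (1146) and library 10 a low one (1321.5), and Pecam1 was higher in shallow cells, as given below. Library 4, with a median of 1273 UMIs, stood at 56.7 CPM of Pecam1. The part of depth or of other cells in these levels was not tested. Esam had 118 UMIs in 1.997% of cells, from 4.53 CPM in library 9 over a median of 10.1 to 19.4 CPM in library 8. Tek was the sparsest, with 58 UMIs in 1.05% of cells. It had no UMI in libraries 6 and 7 and reached 14.2 CPM in library 14 (8 UMIs, interval 6.13 to 28.0). For Esam and Tek the intervals of most libraries overlap, so an order of libraries cannot be read at this depth.

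**Figure D1:**
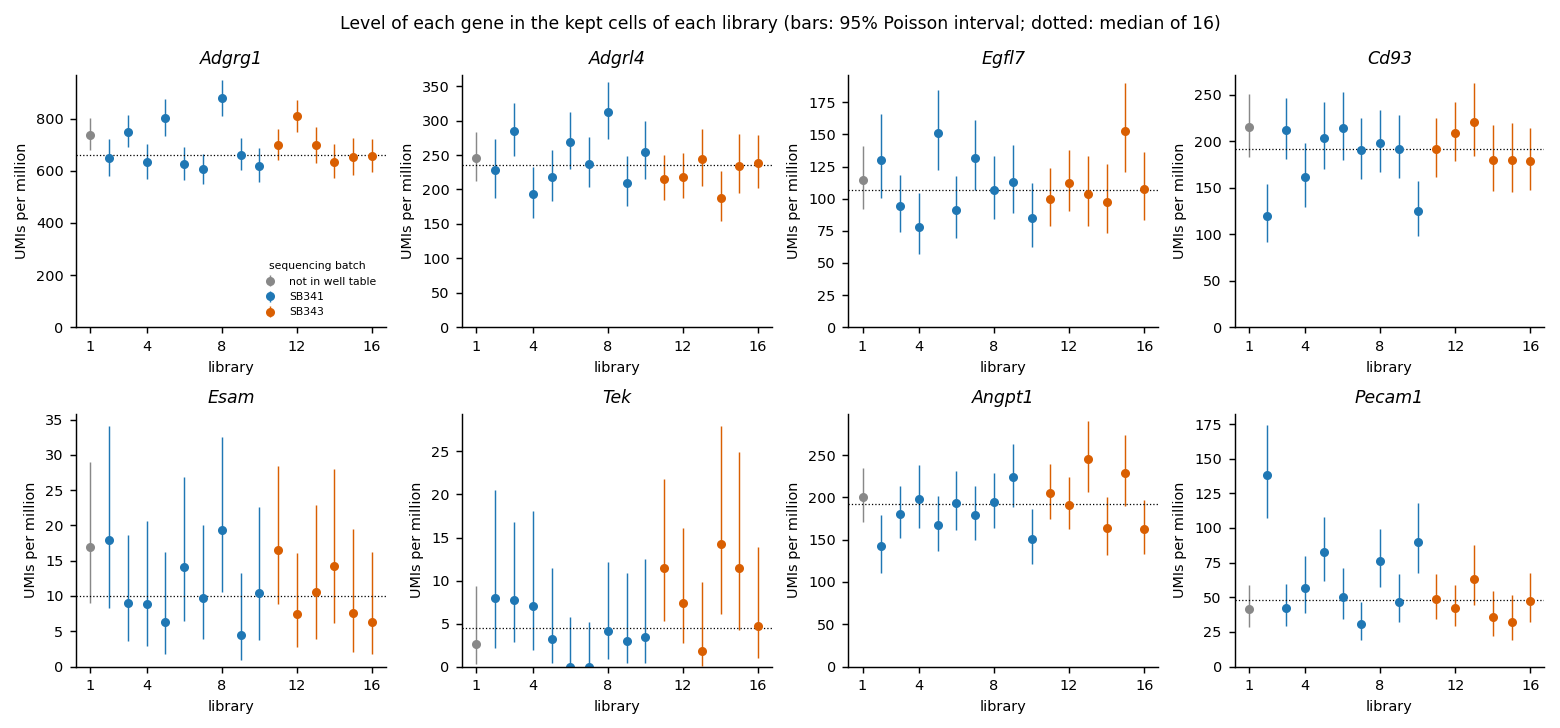
Level of each gene in CPM (y axis, from 0) in the kept cells of libraries 1 to 16 (x axis), with the exact Poisson interval as a bar, the median as a dotted line and colours for the sequencing batch. Pecam1 in library 2 (138 CPM) lies well above the median of 47.9 CPM, and Adgrg1 keeps between 606 and 878 CPM.

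The libraries were sequenced in 2 batches, SB341 (9 libraries) and SB343 (6 libraries), and library 1 was not in the well table. The median of Adgrg1 was 648 CPM in SB341 and 678 CPM in SB343, that of Angpt1 181 and 198 CPM, and that of Tek 3.47 and 9.43 CPM. The ranges of the batches overlapped for every member.

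To see where in the LSK compartment the genes are expressed, cells were gated on other genes, none of them a member. A gate took cells with at least 2 UMIs of its genes and fewer than 2 of each other gate. The stem gate (Hlf, Mecom, Procr and others) held 350 cells, the lymphoid gate (Dntt, Ighm, Il12a and others) 442, the granule gate of neutrophil granule genes (Mpo, Prtn3, Ctsg and others) 812, the monocyte and dendritic gate 285, the megakaryocyte gate (Pf4, Itga2b and others) 81 and the erythroid gate (Car1, Klf1 and others) 48. Another 1263 cells passed several gates and 1876 passed none. Over the ungated cells the levels in CPM were 728 for Adgrg1, 285 for Adgrl4, 102 for Egfl7 and 150 for Cd93. Angpt1 stood at 232, Pecam1 at 62.0, Esam at 19.8 and Tek at 6.88 CPM there. In the cells of several gates the 8 levels, in the same order, were 660, 227, 117, 227, 166, 53.9, 7.57 and 3.55 CPM. Counts were summed per library and gate, from at least 10 cells, and gates were compared with edgeR's quasi-likelihood test with the library as a block and Benjamini-Hochberg adjustment over all genes tested. A gene was called at an adjusted p under 0.05. The contrasts against the stem gate share their stem-gated sums.

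The receptor gene Adgrg1 was highest in stem-gated cells, at 916 CPM (interval 840 to 997), and lower in lymphoid-gated cells, at 567 CPM (515 to 623). Over libraries its level ran from 499 over a median of 842 to 1206 CPM in the stem gate, and from 311 over 508 to 883 CPM in the lymphoid gate. The 2 ranges overlap, but the lymphoid-gated sum was the lower in 15 of 15 libraries. The fitted log2 fold change was -0.68 ± 0.11 (SE), a difference of the kind already known when the gene was chosen. Within batch SB341 it was -0.78 and within SB343 -0.56. The granule gate (757 CPM), the megakaryocyte gate (750 CPM) and the monocyte and dendritic gate (735 CPM) came between, with overlapping intervals, so that their order is not resolved. The interval of the megakaryocyte gate (625 to 893) also overlaps that of the stem gate. The erythroid gate was lowest at 435 CPM (332 to 561). Against the granule gate, lymphoid-gated cells had less Adgrg1 in 15 of 16 libraries (log2 fold change -0.40 ± 0.10), a description that uses the same lymphoid-gated sums. From stem-gated to granule-gated cells the log2 fold change was -0.28 ± 0.10, also a description, since the stem-like level was in view.

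The second adhesion receptor gene, Adgrl4, was not called between lymphoid-gated and stem-gated cells. It stood at 271 CPM in stem-gated, 235 in lymphoid-gated, 226 in granule-gated and 237 in monocyte and dendritic-gated cells, with overlapping intervals, and none of the 4 contrasts between these gates called it. Its log2 fold change from stem-gated to lymphoid-gated cells was -0.19 ± 0.19 (edgeR adjusted p = 0.745). It was much lower in the 2 gates of the platelet and red cell branch: 71.5 CPM in megakaryocyte-gated cells (12 UMIs, interval 36.9 to 125) and 29.0 CPM in erythroid-gated cells (4 UMIs, interval 7.91 to 74.3). Only 2 libraries held 10 megakaryocyte-gated cells and no library held 10 erythroid-gated cells. Of those 2, only library 15 also had a stem-gated sum, with 12 Adgrl4 UMIs there and 0 in its megakaryocyte-gated sum. The fit over the 2 megakaryocyte-gated sums called Adgrl4 lower (log2 fold change -3.65 ± 0.93, edgeR adjusted p = 0.0434), and 7 of 1879 genes tested (0.373%) in all. That call was lost when library 1, 4, 8, 9, 13, 14, 15 or 16 was left out.

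Because those gates were so small, a joint gate of megakaryocyte or erythroid genes was added after the data had been seen, with 136 cells and sums of at least 5 cells in 15 libraries. Genes with at least 50 UMIs over these sums were tested, in place of edgeR's own low-count filter. In it Adgrl4 had 18 UMIs, or 54.0 CPM (32.0 to 85.3). The level over libraries ran from 0 over a median of 48.5 to 221 CPM, against 101 over 245 to 421 CPM in the stem-gated sums of the same libraries. The joint gate was the lower in 15 of 15 libraries, and 3 of its sums had no Adgrl4 UMI. The log2 fold change was -2.31 ± 0.36, and it was -1.92 within SB341 and -2.80 within SB343. In the same libraries Adgrl4 had 18 UMIs in the joint gate and 141 in the stem gate. It thus passed the count filter mainly through the gate where it is high. As the joint gate was chosen after the data had been seen, this value is a description. Adgrg1 fell by 0.77 ± 0.15 in the same comparison (lower in 13 of 15 libraries), a description that uses the same stem-gated sums. Of the 6 members tested, Adgrg1 and Cd93 were chosen with stem-like levels in view and are not counted. Adgrl4 is a description, as said above, and Egfl7, Angpt1 and Pecam1 were not called. Of the 3124 genes tested 4.55% were called, 0.768% higher and 3.78% lower. Scaling shifts the whole comparison: the median log2 fold change of all genes was -0.13, and -0.01 with relative log expression (RLE) size factors in edgeR. With these, 34 genes were called higher and 64 lower in place of 24 and 118. Adgrl4 was then at -2.22 and Adgrg1 at -0.66. With edgeR's own low-count filter 342 genes were tested, and 29 were called higher and 17 lower. Adgrg1 was at -0.58 and Adgrl4 did not pass that filter. With cells thinned to 500 UMIs each, Adgrl4 was at -1.74 (edgeR adjusted p = 0.0691) and Adgrg1 at -0.69, and 24 genes were called.

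Egfl7 and Cd93 went the other way in lymphoid-gated cells. Egfl7, the secreted factor, stood at 213 CPM (182 to 249) there, above the 95.9 CPM of granule-gated, 79.0 of stem-gated and 62.5 of monocyte and dendritic-gated cells, whose intervals overlap in neighbouring pairs. It was detected in 24.0% of lymphoid-gated and 9.71% of stem-gated cells, and in 8.60% and 3.43% after each cell was thinned to 500 UMIs. Over libraries the lymphoid-gated level ran from 31.2 over a median of 235 to 359 CPM, and the stem-gated level from 0 over 70.0 to 164 CPM. The ranges overlap, and the lymphoid-gated sum was the higher in 13 of 15 libraries. The log2 fold change was 1.50 ± 0.30, and 1.35 within SB343, a description since the high lymphoid level of the gene was in view when it was chosen; within SB341 the gene did not pass the low-count filter. Against the granule gate Egfl7 was higher in 14 of 16 libraries, by log2 1.23 ± 0.24, a contrast whose direction was known beforehand. In the joint megakaryocyte or erythroid gate Egfl7 was at 33.0 CPM (11 UMIs) and did not pass the test against the stem gate (-1.66 ± 0.57, edgeR adjusted p = 0.067).

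Cd93, a C-type lectin-like adhesion receptor, stood at 252 CPM (218 to 290) in lymphoid-gated, 182 in granule-gated, 132 in stem-gated and 127 in monocyte and dendritic-gated cells. In cells of both the lymphoid and the granule gate and no other, Cd93 stood at 258 CPM (222 to 299) and Egfl7 at 135 CPM. Over libraries Cd93 ran from 118 over a median of 272 to 377 CPM in the lymphoid gate and from 38.0 over 135 to 231 CPM in the stem gate. The lymphoid-gated sum was the higher in 14 of 15 libraries, with a log2 fold change of 0.96 ± 0.23, again a difference known beforehand. Against the granule gate the log2 fold change of Cd93 was 0.55 ± 0.19 (higher in 11 of 16 libraries). In the joint megakaryocyte or erythroid gate it stood at 54.0 CPM (18 UMIs), with a log2 fold change from the stem gate of -1.32 ± 0.45, a description.

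The ligand gene Angpt1 was low in lymphoid-gated cells. It stood at 121 CPM (97.6 to 148) in lymphoid-gated cells and 116 CPM in erythroid-gated cells (66.4 to 189), against 218 CPM in stem-gated, 197 in granule-gated, 220 in monocyte and dendritic-gated and 316 CPM (236 to 413) in megakaryocyte-gated cells. In the 2 libraries with at least 10 megakaryocyte-gated cells Angpt1 stood at 145 and 178 CPM, and the fit over them gave -0.50 ± 0.66 against the stem gate (edgeR adjusted p = 0.870), so no direction is read for the megakaryocyte gate. Over libraries the lymphoid-gated level ran from 34.5 over a median of 138 to 221 CPM, and the stem-gated level from 67.5 over 190 to 421 CPM. The lymphoid-gated sum was the lower in 13 of 15 libraries. The log2 fold change was -0.79 ± 0.24 (edgeR adjusted p = 0.0343). This call is close to the threshold: it was lost when library 3, 7, 8, 14 or 16 was left out (adjusted p up to 0.128), within SB343 (adjusted p = 0.630) and without a filter on low counts (adjusted p = 0.408), while the value stayed between -0.66 and -1.04 in all settings tried. Against the granule gate the log2 fold change was -0.65 ± 0.21 (adjusted p = 0.0667, lower in 12 of 16 libraries). In the joint megakaryocyte or erythroid gate it was higher in 8 and lower in 7 of 15 libraries (-0.18 ± 0.28, adjusted p = 0.836).

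The receptor of this ligand, Tek, had too few UMIs to be tested. Of its 58 UMIs, 8 were in megakaryocyte-gated cells (47.6 CPM, interval 20.6 to 93.9) and 6 in stem-gated cells (10.3 CPM, interval 3.78 to 22.4). None was among the 768852 UMIs of lymphoid-gated cells, where 3 counts would be 3.90 CPM and the exact Poisson interval reaches 4.80 CPM. A Tek UMI was found in 9.88% of megakaryocyte-gated and 1.43% of stem-gated cells. The joint megakaryocyte or erythroid gate had the higher level in 6 libraries and the stem gate in 3, and the other libraries had no Tek UMI in either. The intervals of the megakaryocyte and stem gates overlap slightly, and the difference between these 2 gates was not tested.

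Esam, an immunoglobulin-type adhesion molecule, likewise failed the low-count filter. It stood at 25.8 CPM in stem-gated cells (15 UMIs, interval 14.4 to 42.5), 8.51 CPM in granule-gated cells (15 UMIs, interval 4.76 to 14.03) and 1.301 CPM in lymphoid-gated cells (1 UMI, interval 0.0329 to 7.25). The intervals of the stem gate and these other 2 do not overlap. The monocyte and dendritic (10.8 CPM), megakaryocyte (11.9 CPM) and erythroid gates (14.5 CPM) had intervals that overlap that of the stem gate. With cells thinned to 500 UMIs, an Esam UMI was found in 0.286% of stem-gated, 0.493% of granule-gated and 0.702% of monocyte and dendritic-gated cells, so the order of these gates is not read. A UMI of Esam was seen in 1 of 16 lymphoid-gated sums and in 11 of 15 stem-gated sums. Pecam1, the platelet and endothelial adhesion molecule, stood at 61.9 CPM in stem-gated, 67.6 in lymphoid-gated, 49.4 in granule-gated, 45.3 in monocyte and dendritic-gated, 23.8 in megakaryocyte-gated and 94.3 CPM in erythroid-gated cells (13 UMIs, interval 50.2 to 161). Most of these intervals overlap. It was tested only against the joint gate (log2 fold change -0.70 ± 0.57, edgeR adjusted p = 0.658).

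**Figure D2:**
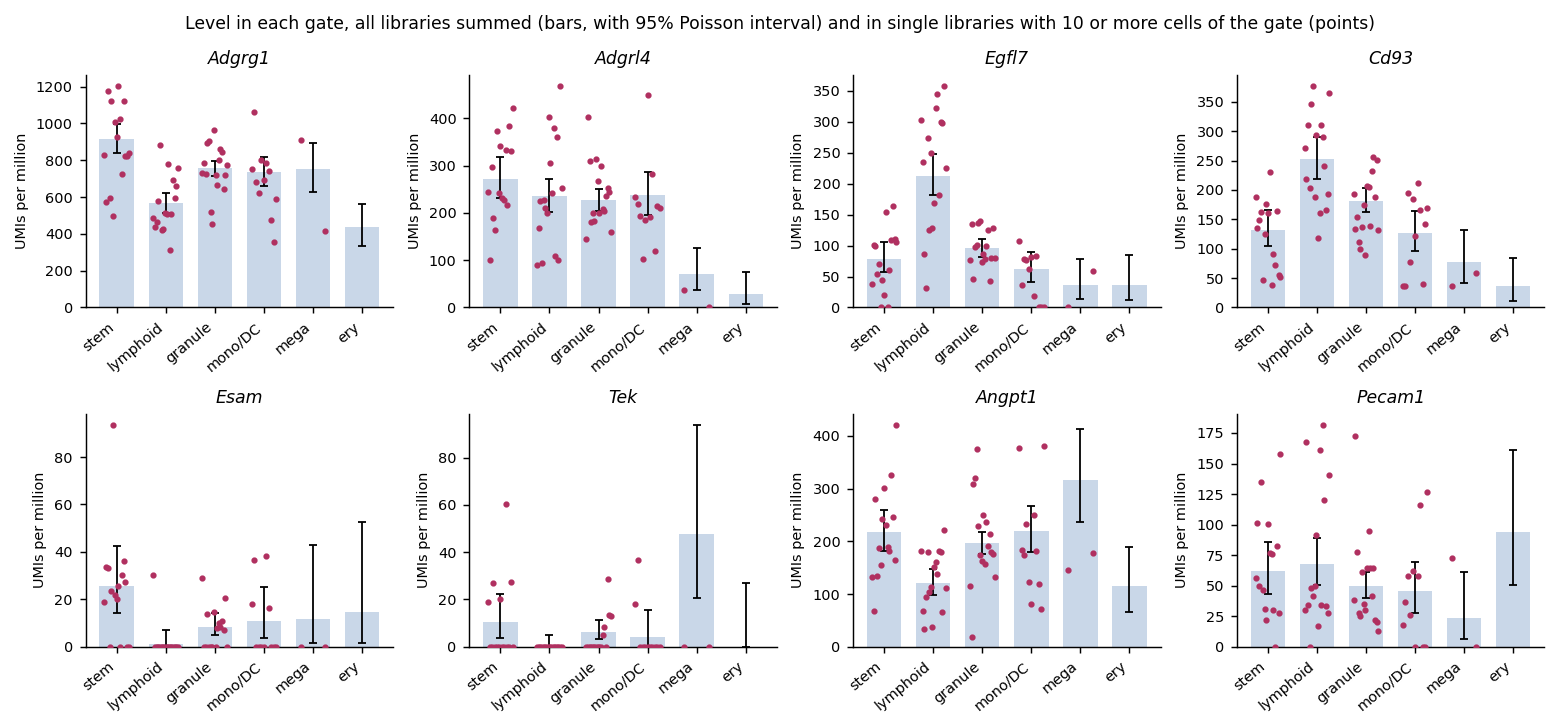
CPM (y axis, from 0) in 6 gates (x axis; mono/DC, monocyte and dendritic; mega, megakaryocyte; ery, erythroid), with bars for all cells of a gate, exact Poisson intervals, and a point for each library with at least 10 cells of the gate. Adgrl4 drops to 71.5 and 29.0 CPM in the last 2 gates, and Egfl7 and Cd93 are highest in the lymphoid gate, at 213 and 252 CPM.

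Counted over the members, 5 of 8 passed the low-count filter of the gate fits (Adgrg1, Adgrl4, Egfl7, Cd93 and Angpt1), and 6 that of the joint gate. Between lymphoid-gated and stem-gated cells 84 of 1879 genes (4.47%) were called, 2.02% higher and 2.45% lower. Egfl7, Cd93 and Adgrg1 were chosen with this gate's values in view and are not counted; of the other 2 members tested Angpt1 fell and Adgrl4 was not called, and nothing is read from that share. Between lymphoid-gated and granule-gated cells, where 3.78% were called, 2.02% higher and 1.76% lower, neither of these 2 was called, by edgeR or by DESeq2; the unadjusted p was under 0.05 for Angpt1. With edgeR's RLE size factors in that contrast 67 genes were called higher and 28 lower, in place of 38 and 33. Between granule-gated and stem-gated cells, where 3.25% of genes were called, neither Adgrl4 nor Angpt1 was. Adgrg1, Cd93 and Egfl7 are again not counted. Between monocyte and dendritic-gated and stem-gated cells 0.266% of genes were called. Of the members counted there, Adgrl4, Egfl7 and Angpt1, none was called by edgeR or by DESeq2. Adgrg1 stood at a log2 fold change of -0.37 ± 0.13, as description. With gates that may overlap, so that cells of several programmes count in each, 85 of 1729 genes were called in that contrast. The same cells can then enter both sums of a library. Angpt1 (-0.59) was called lower, while Adgrg1 stood at -0.64 and Cd93 at 0.84 (-0.08 in exclusive gates), both as description. The members are few and were chosen with results known, so these counts are a description.

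**Figure D3:**
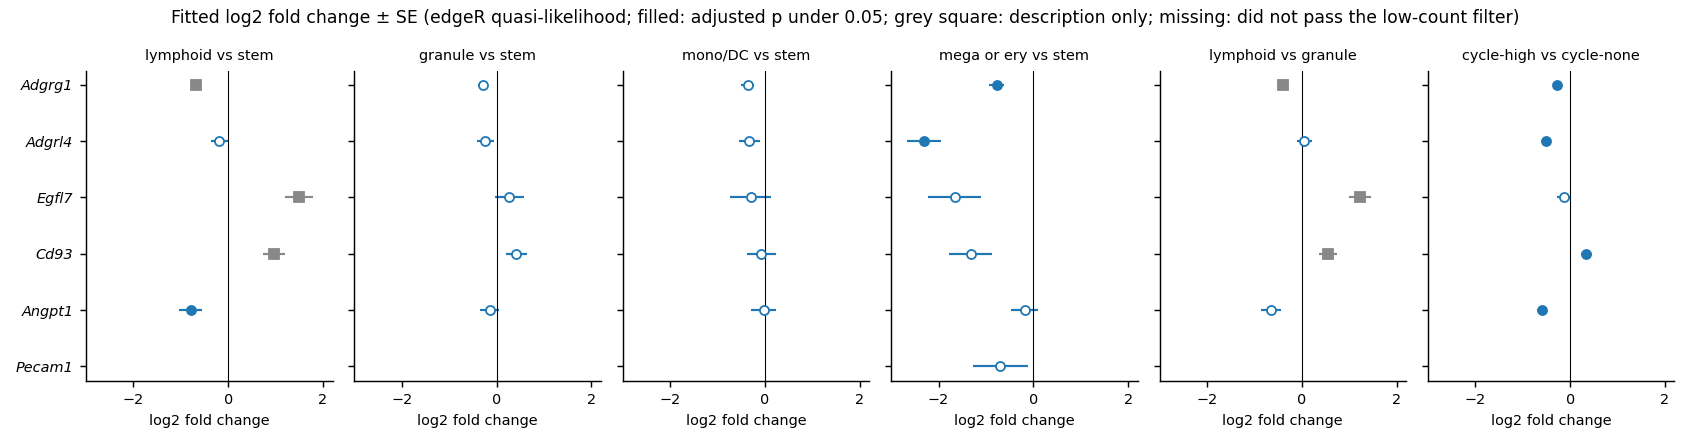
Fitted log2 fold changes (x axis) of the 6 members that could be tested (rows) in 6 contrasts (panels), with SE as bars, filled points for an adjusted p under 0.05, and grey squares for values given as description only. The circles of Adgrg1 and Cd93 against the stem gate, of Egfl7 in granule against stem, and of Adgrl4 in the joint gate are description too, filled or not. Egfl7 (1.50) and Cd93 (0.96) lie to the right and Adgrg1 (-0.68) and Angpt1 (-0.79) to the left in the lymphoid panel, while Adgrl4 (-2.31) is farthest left in the panel of the joint gate.

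Cell cycle genes divided the cells in a second way that used no member. Cells with at least 1000 UMIs were thinned to 1000, and 1834 cells with 3 or more UMIs of 30 mitotic cycle genes (cycle-high) were compared with 827 cells with none (cycle-none) over 16 libraries, on their full counts. Angpt1, Adgrl4 and Adgrg1 were lower in cycle-high cells, Cd93 was higher and Egfl7 did not pass the test. Cycle-high cells held more UMIs, with a median of 2423 UMIs against 1635.

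Angpt1 ran from 105 over a median of 171 to 221 CPM in cycle-high and from 173 over 244 to 373 CPM in cycle-none cells. It was lower in cycle-high cells in 14 of 16 libraries (log2 fold change -0.60 ± 0.11, edgeR adjusted p = 1.10e-05), with -0.64 within SB341 and -0.55 within SB343. Adgrl4 ran from 159 over 213 to 304 CPM in cycle-high and from 130 over 305 to 452 CPM in cycle-none cells. It was lower in 13 of 16 libraries (-0.52 ± 0.10, adjusted p = 5.79e-05), with -0.53 and -0.50 within the batches. Adgrg1 ran from 564 over 633 to 873 CPM and from 610 over 780 to 970 CPM, lower in 15 of 16 libraries (-0.27 ± 0.06, adjusted p = 7.48e-05), with -0.30 and -0.19 within the batches. The ranges of the 2 classes overlap for all 3 genes, and the difference shows within libraries. In SB343 alone none of the 3 passed the threshold (adjusted p = 0.0532 for Angpt1, 0.0661 for Adgrl4 and 0.347 for Adgrg1).

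Cd93 ran from 114 over a median of 215 to 258 CPM in cycle-high and from 63.2 over 166 to 271 CPM in cycle-none cells, and was higher in 13 of 16 libraries (0.34 ± 0.12, edgeR adjusted p = 0.0373). This call was lost in DESeq2 (adjusted p = 0.0682), within either batch, and when any of 9 libraries (1, 3, 4, 5, 6, 9, 11, 13 or 16) was left out. Egfl7 was lower in 10 of 16 libraries (-0.12 ± 0.15, adjusted p = 0.651). Esam had 43 UMIs (8.04 CPM) in cycle-high and 27 UMIs (17.0 CPM) in cycle-none cells. Tek, at 4.86 and 4.41 CPM, and Pecam1, at 51.6 and 55.4 CPM, were at similar levels with overlapping intervals. So 3 of the 5 members tested fell and 1 rose, in a contrast that called 16.1% of 3013 genes, 6.6% higher and 9.49% lower. Without a filter on low counts the median of all genes moved from -0.03 to 0.21 in this contrast, and Adgrg1 stood at -0.06 (adjusted p = 0.890), Adgrl4 at -0.31 (0.0810) and Angpt1 at -0.39 (0.0311). Relative to the median of the genes tested in each fit, the 3 were lower in both. The genes tested differ between these fits, so this is no separate test, and the calls of Adgrg1 and Adgrl4 were lost.

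**Figure D4:**
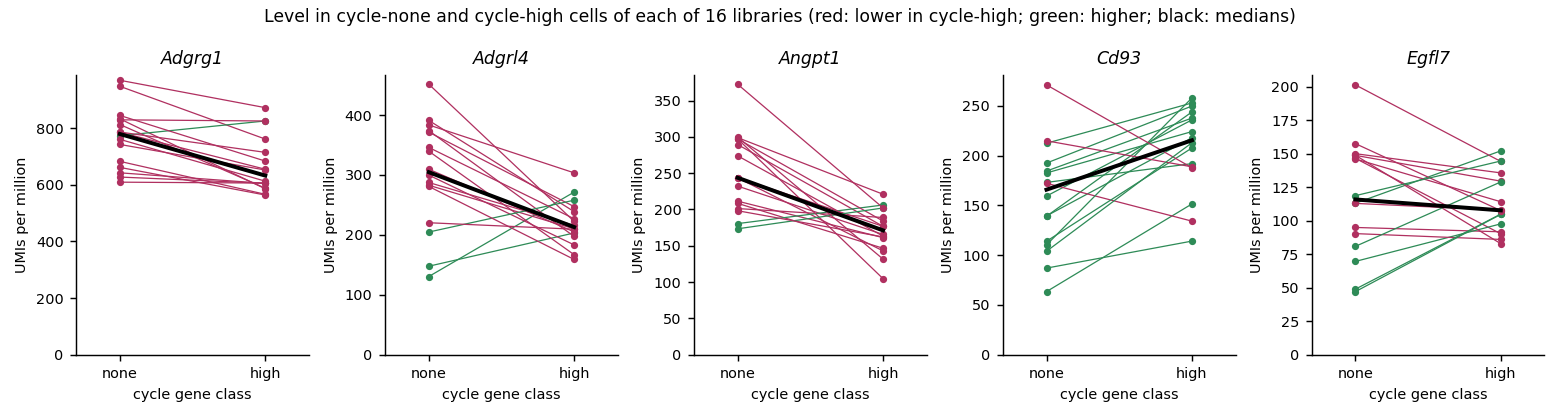
CPM (y axis, from 0) in the cycle-none and cycle-high cells (x axis) of each library, with a line per library in red where cycle-high is lower and green where it is higher, and the medians in black. Angpt1 falls in 14, Adgrl4 in 13 and Adgrg1 in 15 of 16 libraries, and Cd93 rises in 13.

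Depth itself went with level for some members. Angpt1 stood at 243 CPM in cells of under 1000 UMIs, 209 CPM in cells of 1000 to under 2000 and 173 CPM in cells of 2000 or more. Over the same bins Pecam1 went from 70.5 over 64.4 to 50.3 CPM and Esam from 20.1 over 15.5 to 8.18 CPM. Cd93 went from 161 over 166 to 204 CPM and Egfl7 from 83.6 over 110 to 114 CPM. Median UMIs per cell were 1462 in the stem, 1429 in the lymphoid and 1894.5 in the granule gate, so the lymphoid and stem gates were close in depth. The part of depth in the cycle contrast was not tested.

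Several ligands and receptors among the partners of these proteins were sparse, while signalling genes such as Ptpn6 (1587 UMIs) and Grb2 (1357 UMIs) were not. Of 18 genes of angiopoietin and TIE signalling, 2 passed the low-count filter in the gate fits and 1, Angpt1 itself, was called lower in lymphoid-gated cells; the antagonist ligand Angpt2 and the phosphatase Ptprb had no UMI, and the co-receptor Tie1 had 82 UMIs. Of 12 ligands and effectors of adhesion receptors 2 were tested and none was called in a gate contrast. No gene of the 9 EGFL7 partners, which include the Notch receptors and their ligands, passed the filter in any fit. Of 13 partners of CD93, ESAM and PECAM1, 1 was tested and not called, and the CD93 ligand Mmrn2 had no UMI.

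Transcription factors that blood and endothelium share were better covered. Of 10 such genes 7 were tested between lymphoid-gated and stem-gated cells, and 2 fell, where 4.47% of all genes tested were called: Gata2 (log2 fold change -2.23 ± 0.42, edgeR adjusted p = 5.07e-05) and Lmo2 (-0.38 ± 0.12, adjusted p = 0.0489). The median of the 7 was -0.36, beside 0.02 for all genes. In the joint megakaryocyte or erythroid gate Gata2 rose (1.03 ± 0.30, adjusted p = 0.0221), of 9 tested, beside 0.768% of all genes called higher and 3.78% lower. The ETS factor Erg stood at -1.54 ± 0.44, with 54.0 CPM in the joint gate and 149 CPM in stem-gated cells. It passed the count filter mainly through the stem-gated sums, so its value is a description. The gate was added after the data had been seen, and the balance of its calls turned with the filter, as given above. In cycle-high cells Lmo2 (-0.32 ± 0.07, adjusted p = 8.64e-05) and the ETS factor Etv6 (-0.33 ± 0.11, adjusted p = 0.0317) fell, of 9 tested, beside 16.1% of all genes.

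Among 13 surface genes of stem and progenitor cells outside the members, 9 were tested between lymphoid-gated and stem-gated cells, and 2 rose and 2 fell, beside 4.47% of all genes called. Flt3, the receptor of multipotent and lymphoid progenitors, rose (2.23 ± 0.30, edgeR adjusted p = 4.91e-09), and Eng, an endothelial co-receptor of TGF-beta ligands, fell (-1.28 ± 0.40, adjusted p = 0.0406). In the joint megakaryocyte or erythroid gate Ly6a (-1.77 ± 0.32) and Cd34 (-1.71 ± 0.25) were lower, of 10 tested, beside 3.78% of all genes called lower. They stood at 87.0 and 150 CPM there, against 297 and 509 CPM in stem-gated cells. Like Erg, they are given as description. In cycle-high cells Ly6a fell (-0.84 ± 0.11, adjusted p = 1.33e-09), the only call among 9 tested, where 16.1% of all genes were called. In granule-gated against stem-gated cells, where 3.25% of all genes were called, Ly6a fell (-1.08 ± 0.21, adjusted p = 9.26e-05) and Cd48 rose (1.01 ± 0.19, adjusted p = 6.97e-05).

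Within single cells, pairs of members were set against the number that their separate frequencies give. In 3840 cells thinned to 1000 UMIs, 25.8% held no member, 41.8% held 1, 24.5% held 2 and 7.86% held 3 or more. Adgrg1 and Adgrl4 were found together in 364 cells, where independence within libraries gives 358. Adgrg1 and Angpt1 shared 323 cells where it gives 289, Egfl7 and Cd93 shared 74 where it gives 64.4, and Adgrg1 and Egfl7 shared 177 where it gives 192. Tek and its ligand Angpt1 shared 3 cells, where independence gives 2.92. With 5157 cells thinned to 500 UMIs, Adgrg1 and Angpt1 shared 147 cells where it gives 134. Egfl7 and Cd93 then shared 20 where it gives 20.3, and Esam and Angpt1 shared 8 where it gives 3.65.

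Over the 60 sums of a library and gate, the correlation between members was positive for Egfl7 with Cd93 (Pearson r = 0.44) and Adgrg1 with Angpt1 (0.44), and negative for Adgrg1 with Cd93 (-0.32) and Cd93 with Angpt1 (-0.27). Among 3271 other genes, those most like Egfl7 were Retreg1 (0.59), 9530068E07Rik (0.57) and Plac8 (0.55), and those most like Cd93 were Plac8 (0.62), Mir8113 (0.62) and H2afy (0.58). Among those most like Adgrg1 were Gse1 (0.49) and Lmo2 (0.48), and among those most like Angpt1 were Stxbp2 (0.51) and AC168881.1 (0.51). For Adgrl4 they were Mir5117 (0.66), Npc2 (0.61) and Irak1 (0.57), and for Pecam1 Med7 (0.53), Surf4 (0.52) and Rps4x-ps (0.49). These sums share libraries, differ in depth and include several gates, so the values describe likeness over them only.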

How the data were processed

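LSK cells of 16 MARS-seq libraries of 384 wells were analysed. The authors deposited UMI counts per gene and well, made from reads demultiplexed with bcl2fastq 2.15.0.4 on mm10, per the submitters' processing notes (aligner, annotation and strand setting: not given in the sources used here). A deposited well table gave batches and empty wells. Kept cells had at least 500 UMIs without the 92 ERCC rows, under 20% mt- UMIs and were not listed as empty; no doublet caller was run on sorted single-cell wells. No well name was shared between libraries, and no 2 libraries agreed within sampling noise. The members and gene lists were chosen with earlier results of these data known. Members are all named; of each list, the called genes with the 3 largest changes, and for likeness the 3 genes with the highest r; some of these are not reported here. edgeR 4.0.16 (TMM, filterByExpr, quasi-likelihood F test, library as block, Benjamini-Hochberg) was run on the counts; for the joint gate, genes with at least 50 UMIs over sums of at least 5 cells replaced filterByExpr; DESeq2 1.42.0, other scalings, filters, gates, batches and left-out libraries were tried. Sums of a library come from the same wells, which makes the library a block. Libraries may share mice, so p-values measure the spread between libraries. On data simulated for lymphoid-gated against stem-gated cells, 42 of 45 genes raised 2-fold and 29 of 37 lowered 2-fold were recovered, and 10 of 1522 unchanged genes were called. Changed genes that failed the low-count filter are not in these counts. The simulation gave every gene the same dispersion and libraries no difference but depth, so these shares need not hold for the real sums.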

Additional observations from a re-analysis of the deposited data

Results flagged for a closer look

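Wells left out of the kept cells also held transcripts of the 8 genes. The 841 wells under the UMI minimum held 340 UMIs of them (1541 CPM), and the 86 wells over the mt maximum held 113 (1129 CPM), beside 1 UMI in the 60 wells listed as empty. The kept cells held 15672 (1502 CPM). These wells are outside every comparison here.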

How the results depend on the processing

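Of 24 median levels recomputed with other limits on cells, all moved by less than the spread between libraries. Of 813 refitted values of members, 30 changed sign, 48 lost a call and 30 gained one. This tally includes the contrasts given above as description, for which a call lost, kept or gained is not read. Without the replicate block (library left out of the model) the calls numbered 37 in granule-gated against stem-gated, 1 in monocyte and dendritic-gated, 17 in megakaryocyte-gated, 31 in lymphoid-gated against granule-gated and 280 in cycle-high cells. Without a filter on low counts they were 235 (granule against stem), 128 (lymphoid against granule) and 735 (cycle), and with overlapping gates 184 (lymphoid), 180 (granule), 85 (monocyte and dendritic), 28 (megakaryocyte) and 168 (lymphoid against granule). Thinning to 500 UMIs gave 18, 19, 0 (megakaryocyte; unadjusted p under 0.05 for 27), 9 (lymphoid against granule) and 24 (joint gate), with fewer genes tested. Within SB341 the calls were 40, 26, 0 (60 at an unadjusted p under 0.05), 18, 317 and 30, and within SB343 14, 7, 0 (65), 4 (megakaryocyte), 2, 167 and 31, with fewer libraries. A gate minimum of 3 UMIs gave 98 (granule), 0 (monocyte and dendritic; 219 at an unadjusted p under 0.05) and 4 (megakaryocyte). DESeq2 gave 4 (megakaryocyte, and 4 in monocyte and dendritic) and 60 (joint gate), edgeR's RLE size factors 2 (monocyte and dendritic) and filterByExpr 46 (joint gate, 342 genes tested). Leaving out a library gave 70 to 92 calls (lymphoid), 39 (without library 8) to 66 (granule), 1 to 7 (monocyte and dendritic), 1 to 8 (megakaryocyte), 51 to 74 (lymphoid against granule), 423 to 490 (cycle) and 114 to 188 (joint gate). The erythroid gate could be fitted with overlapping gates only, with 0 calls in edgeR of 3564 genes (167 at an unadjusted p under 0.05); DESeq2 was not run there.

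Signs changed for members whose main value was not called or was given as description only. Against the stem gate these were, in granule-gated cells, Adgrg1 (0.0423), Adgrl4 (0.0872) and Angpt1 (0.17) without a filter on low counts, which moved the median of all genes to 0.21; Adgrl4 (0.0161) and Angpt1 (0.00211) within SB341; and Egfl7 (-0.27) within SB343. In monocyte and dendritic-gated cells they were Egfl7 (0.45) and Cd93 (0.56) with a minimum of 3 UMIs, Egfl7 (0.15) and Cd93 (0.84) with overlapping gates, and Cd93 within SB341 (0.0369) and SB343 (0.13). In megakaryocyte-gated cells Angpt1 was at 0.34 with a minimum of 3 UMIs and 0.35 with overlapping gates. Between lymphoid-gated and granule-gated cells Adgrl4 was at -0.18 without the filter, -0.15 within SB341 and -0.11 with a minimum of 3 UMIs, and in cycle-high cells Egfl7 was at 0.0846 without the filter. Leaving out a library spread Cd93 from -0.20 to 0.14 and Angpt1 from -0.26 to 0.0618 (monocyte and dendritic), Adgrg1 from -1.31 to 0.0617 (megakaryocyte) and Adgrl4 from -0.0723 to 0.14 (lymphoid against granule). The cause of these changes was not tested. Depth limits Esam and Tek, with 118 and 58 UMIs in all.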
